A study of Mus musculus with 4 samples.

Results

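Extracellular proteases that tumour cells use to cross matrix, and the proteins that restrain them, were followed in NF639 cells, a mouse line grown from a mammary tumour of the ErbB2 (Her-2/neu) oncogene. The 9 genes were given by name: the matrix metalloproteinase genes Mmp2, Mmp3, Mmp9 and Mmp14, the inhibitor genes Timp1, Timp2 and Timp3, and Plau and Plaur of the plasminogen activator system. Every probe set whose platform annotation gave only 1 of these symbols was taken, 21 of the 22690 on the array. RNA of the original population was hybridised to 2 Affymetrix Mouse 430A 2.0 arrays, and RNA of a pool with resistance to the green tea polyphenol EGCG (epigallocatechin 3-gallate) to another 2. Per the labels the RNAs came from independent experiments, and the resistant cells are a pool and not a clone. Both populations come from the same line and so share its oncogene, and the labels do not say whether EGCG was present at harvest.

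Matrix metalloproteinases are zinc enzymes that are made as inactive precursors and cut collagens, other matrix proteins and surface proteins once activated. TIMPs are secreted proteins that block their active site, and the precursor of the gelatinase MMP-2 is activated at the cell surface in a complex of MMP-14 and TIMP-2. Urokinase, the product of Plau, turns plasminogen into the broad protease plasmin, and its receptor, the product of Plaur, holds it at the cell surface. In breast tumours these genes are studied for their part in invasion, and fibroblasts and leukocytes are known sources of several of them.

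No member passed the test over all probe sets. The inhibitor gene Timp1 had a signal 1.59 times as high in the resistant pool as in the original population, and the 4 probe sets of the inhibitor gene Timp3 had fitted ratios of 0.599 to 0.781. The urokinase receptor gene Plaur had a ratio of 0.594, and the urokinase gene Plau itself was dim in both populations. In a fit blocked on replicate number, which called 5.45% of all probe sets, those of Timp1 and Plaur and 2 of the 4 of Timp3 passed. The RefSeq promoters (build GRCm38.p6) of these 3 genes are shown for that reason. Promoters of 6 of the 9 genes were in that table: Timp1, Timp2, Timp3, Plaur, Mmp3 and Mmp14. Each line holds the 250 bases before the annotated start, 5′ to 3′ on the strand of the gene. Capitals mark matches on either strand to the letters of any of the motifs searched. The AP-1 motif, bound by FOS and JUN proteins, was searched as TGAGTCA. The PEA3 motif, bound by ETS factors, was searched as AGGAAG. The motif of the factor Sp1 was searched as GGGCGG, and the core promoter element known as the TATA box as TATAAA.
Timp1, chrX:20869916-20870165, plus strand: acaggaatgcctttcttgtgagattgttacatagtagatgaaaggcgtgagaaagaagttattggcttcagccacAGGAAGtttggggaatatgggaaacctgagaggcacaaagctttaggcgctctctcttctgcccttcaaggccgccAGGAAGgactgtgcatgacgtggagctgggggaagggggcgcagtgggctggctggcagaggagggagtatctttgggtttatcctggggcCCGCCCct
Timp3, chr10:86300162-86300411, plus strand: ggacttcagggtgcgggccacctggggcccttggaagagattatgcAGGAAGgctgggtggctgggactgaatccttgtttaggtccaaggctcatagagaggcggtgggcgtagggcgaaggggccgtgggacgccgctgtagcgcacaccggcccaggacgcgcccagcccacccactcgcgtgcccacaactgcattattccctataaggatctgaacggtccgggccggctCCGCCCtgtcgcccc
Plaur, chr7:24462233-24462482, plus strand: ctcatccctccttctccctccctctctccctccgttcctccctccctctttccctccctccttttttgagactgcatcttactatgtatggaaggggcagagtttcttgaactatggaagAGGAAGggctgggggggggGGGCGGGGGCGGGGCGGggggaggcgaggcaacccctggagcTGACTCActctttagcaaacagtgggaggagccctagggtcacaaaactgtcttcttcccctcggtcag
The Plaur promoter held an AP-1 match 69 to 63 bases before the start, 1 PEA3 match and 3 Sp1 matches, of which 2 overlap by 1 base. Over the 32851 promoters of the table, 4.46% held the AP-1 letters in this window, 29.5% the PEA3 letters, 32.7% the Sp1 letters and 12.4% the TATA letters. The Timp1 promoter held 2 PEA3 matches and 1 Sp1 match, and the Timp3 promoter 1 of each, and neither held the AP-1 or TATA letters. Of the other promoters, that of Mmp3 held an AP-1, a PEA3 and a TATA match, that of Mmp14 a PEA3 and 2 Sp1 matches, and that of Timp2 an Sp1 match. A match describes the letters of the window and is not evidence of binding.

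The values are MAS5 signals, 1 background-adjusted intensity per probe set and array on a linear scale. Levels of different probe sets cannot be set against each other, since probes differ in how strongly they bind. A probe set was tested when its mean signal over the 4 arrays reached the 40th percentile of all probe sets, 51.9. This left 13576 probe sets, among them 17 of the 21 members, and these 17 cover 7 of the 9 genes. Fold changes are differences of log2(signal + 3), resistant minus original, fitted with limma, and adjusted p-values are Benjamini-Hochberg values over all 13576. The interval given is limma's 95% interval for 1 probe set, not adjusted for the number of probe sets. For 2 arrays against 2, the smallest two-sided p of an exact permutation test is far above any usual threshold, so none is given.

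**Figure D1:**
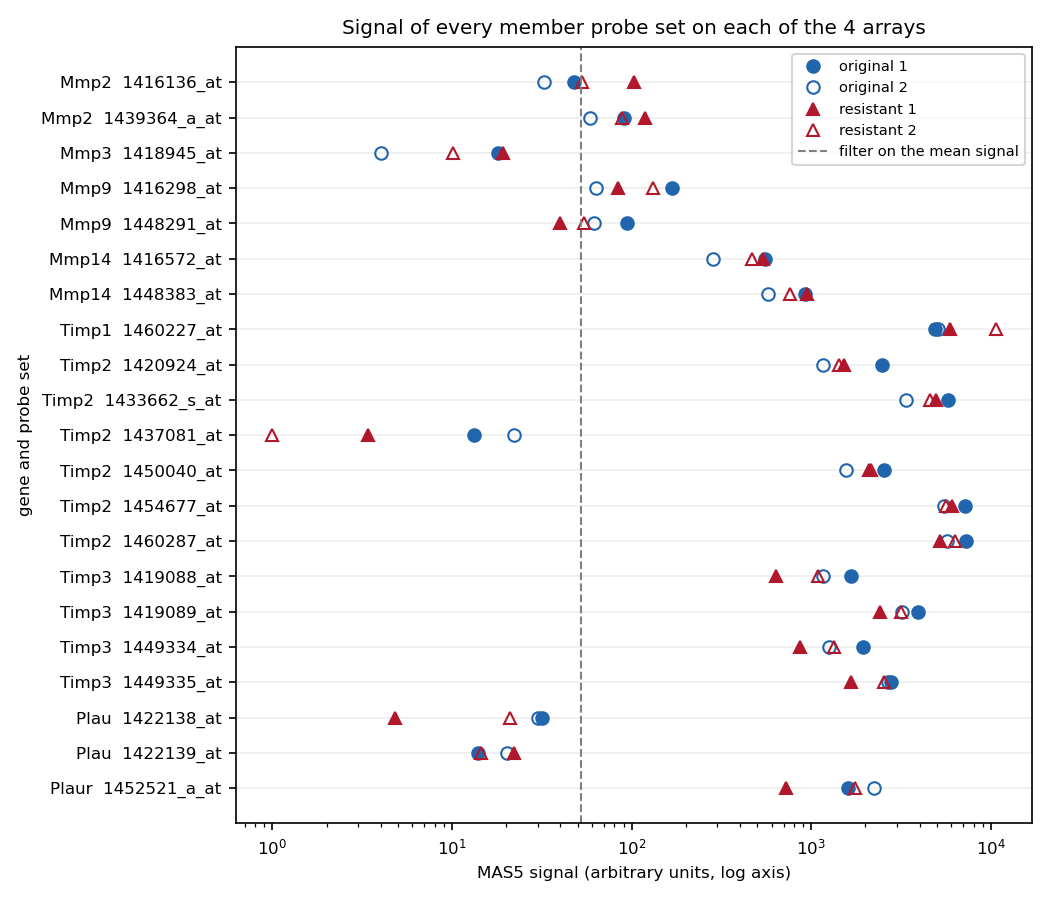
MAS5 signal (log axis) of all 21 member probe sets, 1 row per probe set, on the original (circles) and resistant (triangles) arrays; filled symbols are replicate number 1 and open symbols number 2. The Plau and Mmp3 probe sets lie left of the dashed filter at 51.9, and the probe sets of Timp1 and Timp3 and the single one of Plaur lie far to its right.

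The arrays had median signals from 113.95 to 135.25, and the 2% trimmed mean was 500.2 on each, so the authors' scaling had removed any global difference in RNA content. The 7 probe sets of the spiked controls BioB, BioC and BioDn were 1.39 to 2.11 times brighter on original 2 than on original 1, and 1.48 to 2.29 times brighter on resistant 2 than on resistant 1. Resistant arrays had 0.938 to 1.14 times the spike signal of the original array with their number. Original 2 also stood apart in a probe set for 18S ribosomal RNA, with 4005.3 against 346.7 to 624.3 on the other arrays. The labels do not say that a shared replicate number marks a shared experiment. Because the spiked controls split the arrays by number, differences within each number and a fit with the number as a block are given beside the differences between the groups. The fit with the block leaves 1 residual degree of freedom, and limma's prior degrees of freedom came out infinite, so each p-value uses a spread that all probe sets of similar signal have in common. Such p-values can be small for a gene whose difference varies between the numbers.

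Of the 17 tested member probe sets, 8 had a fitted difference above 0 and 9 below, and 0 passed (limma, adjusted p from 0.537 to 0.999). Over all probe sets tested 0.228% passed, so 0 of 17 is no result about these genes. At an unadjusted p under 0.05 there were 2 members, against 7.51% of all probe sets. The median log2 difference of the 17 was -0.10, beside -0.0035 over all probe sets. The groups did not overlap in 6 of the 17, 2 higher and 4 lower in the resistant pool, which is close to the share of 36.1% over all probe sets (17.8% higher and 18.3% lower). Among the 6 are Mmp2 1416136_at and Mmp9 1448291_at, each with 1 group's mean under the filter. With the replicate block 4 of the 17 passed, 1 higher and 3 lower, beside 5.45% of all probe sets (2.36% higher and 3.09% lower). These 4 probe sets belong to 3 genes, Timp1, Timp3 and Plaur. Probe sets of 1 gene share their transcript and are not independent.

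**Figure D2:**
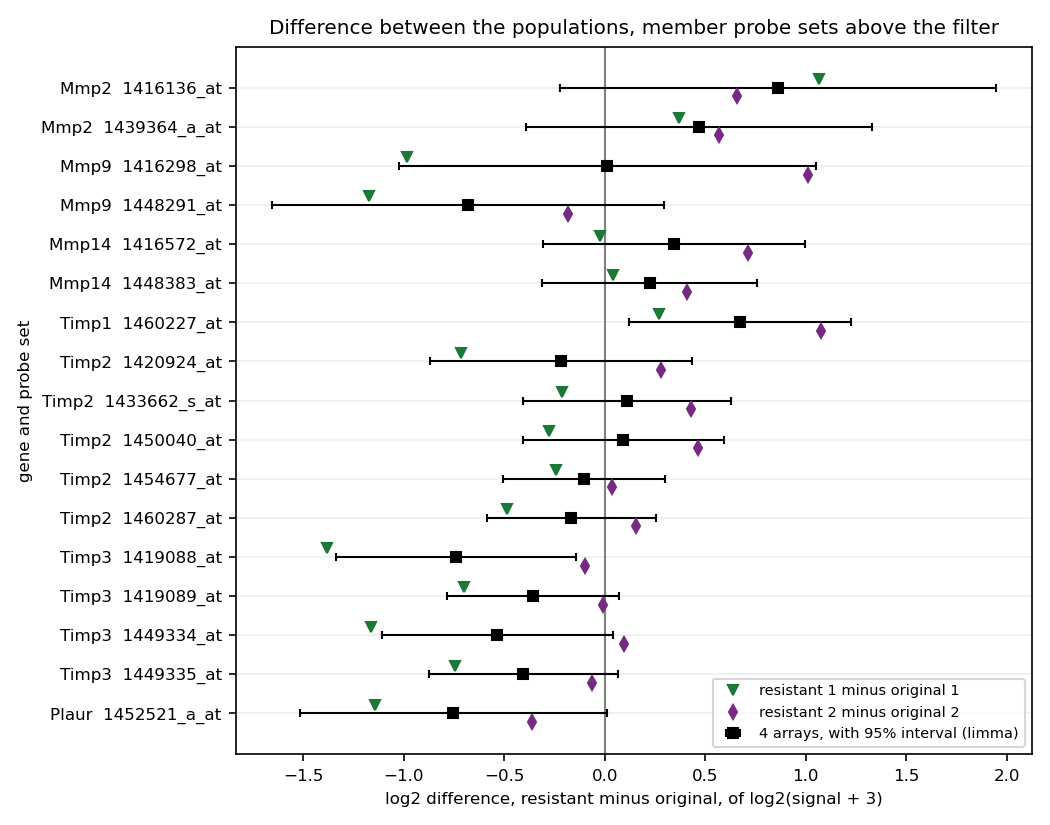
Log2 difference, resistant minus original, of the 17 tested member probe sets: squares with 95% intervals from all 4 arrays, triangles for replicate number 1 and diamonds for number 2. The intervals of Timp1 1460227_at and Timp3 1419088_at leave out 0, and all 4 Timp3 probe sets are far lower in number 1 than in number 2.

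Mmp2 encodes gelatinase A, which degrades denatured and basement membrane collagen. Its probe set 1416136_at read 47.6 and 32.3 in the original population against 103.1 and 52.7 in the resistant pool. The groups did not overlap, though resistant 2 lay only just above original 1. Both original signals lay under the filter of 51.9, so the probe set was tested only through its resistant signals and had to be higher there. The log2 difference was 0.86 ± 0.487 (SE), with means of 39.95 ± 10.8 and 77.9 ± 35.6 (SD, n = 2 per group); it missed the threshold (limma adjusted p = 0.77). The other Mmp2 probe set, 1439364_a_at, had 90.9 and 58.4 on the original and 118.4 and 88.1 on the resistant arrays, so that the groups overlapped. Its log2 difference was 0.47 ± 0.387 (SE; limma adjusted p = 0.88). Within the numbers both probe sets were higher in the resistant pool, by 1.07 and 0.66 for the first and by 0.37 and 0.57 for the second on the log2 scale. With a pseudocount of 64 the difference of 1416136_at was 0.43. Neither probe set passed with the replicate block (adjusted p = 0.325 and 0.582).

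Mmp9 encodes gelatinase B, the inducible gelatinase. The 2 probe sets disagreed. Probe set 1416298_at had 167.8 and 63.3 on the original and 83.6 and 130.5 on the resistant arrays, with original 1 the highest and original 2 the lowest. Its log2 difference was 0.01 ± 0.466 (SE; limma adjusted p = 0.999), made of -0.98 in number 1 and 1.01 in number 2. Probe set 1448291_at had 94.1 and 61.7 on the original and 40.1 and 54 on the resistant arrays, which did not overlap. Its resistant mean of 47.05 was under the filter, so it was tested only through the original arrays. Its log2 difference was -0.68 ± 0.438 (SE; limma adjusted p = 0.822), with -1.17 in number 1 and -0.18 in number 2. The 95% interval of 1416298_at ran from a ratio of 0.492 to 2.07, so ratios within that range, in either direction, were not excluded.

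Mmp14 encodes the membrane-bound MT1-MMP, a collagenase that also activates the MMP-2 precursor. Probe set 1448383_at had 915.4 and 575.6 on the original and 942.9 and 765 on the resistant arrays. The array of original 2 was the lowest and the other original array lay among the resistant ones. Probe set 1416572_at had 548.3 and 284.6 on the original and 540.6 and 468.9 on the resistant arrays, where original 2 was again the lowest. The log2 differences were 0.22 ± 0.241 and 0.35 ± 0.293 (SE), and neither passed (limma adjusted p = 0.931 and 0.881). In number 1 the differences were 0.04 and -0.02, and in number 2 they were 0.41 and 0.71. Without original 2 both turned, to -0.11 and -0.12, so the direction rested on that array. For 1448383_at the 95% interval ran from a ratio of 0.806 to 1.69.

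Mmp3 encodes stromelysin-1, a matrix protease that can also activate other precursors of its family. Its single probe set had 17.9 and 4 on the original and 19.2 and 10.1 on the resistant arrays. All 4 values lay under the filter, and the gene was not tested.

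Timp1 encodes a secreted inhibitor of most metalloproteinases that binds the MMP-9 precursor. The probe set 1460227_at read 4875.3 and 5034.4 in the original population against 5874.3 and 10632.6 in the resistant pool. Both resistant arrays were above both original ones, and resistant 2 stood far above resistant 1. The means were 4954.9 ± 112 and 8253.5 ± 3365 (SD, n = 2 per group), for a log2 difference of 0.67 ± 0.248 (SE) or a ratio of 1.59 with a 95% interval from 1.09 to 2.34. It did not pass (limma adjusted p = 0.554). In number 1 the difference was 0.27 and in number 2 it was 1.08, and with the replicate block it passed (limma adjusted p = 1.49e-06). Without resistant 2 the difference was 0.24, and without resistant 1 it was 1.10, so its size depended on which resistant array was used. The second of these passed (limma adjusted p = 0.0303), but such a fit takes its spread from the original arrays and limma's prior, and assumes that the lone resistant array varies likewise.

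Timp3 encodes the inhibitor that binds to matrix and also blocks ADAM17. All 4 of its probe sets had fitted differences below 0. Probe set 1419088_at had 1654.3 and 1162.6 on the original and 633.3 and 1087.6 on the resistant arrays. Probe set 1449334_at had 1947.8 and 1255.9 on the original and 868.2 and 1341.5 on the resistant arrays. In each case resistant 1 was the lowest and original 1 the highest array, while the arrays numbered 2 lay close together. The same held for 1419089_at, with 3910.5 and 3174.4 on the original and 2405.4 and 3154.9 on the resistant arrays. For 1449335_at the values were 2771.9 and 2659.7 on the original and 1653.5 and 2547.9 on the resistant arrays. The groups did not overlap in 3 of the 4 probe sets, all lower in the resistant pool, as in 18.3% of all probe sets tested. These probe sets share their gene and are not independent. In 1419089_at the gap was only from 3154.9 to 3174.4, and in 1449334_at resistant 2 lay above original 2.

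The log2 differences of Timp3 were -0.74 ± 0.267 (SE) for 1419088_at, -0.54 ± 0.258 (SE) for 1449334_at, -0.40 ± 0.211 (SE) for 1449335_at and -0.36 ± 0.192 (SE) for 1419089_at. None passed (limma adjusted p = 0.537, 0.701, 0.743 and 0.754). Within number 1 they were -1.38, -1.16, -0.75 and -0.70, and within number 2 they were -0.10, 0.09, -0.06 and -0.01, in the same order. The lower Timp3 signal of the resistant pool was thus that of resistant 1 against original 1. With the replicate block 1419088_at and 1449334_at passed (limma adjusted p = 0.000989 and 0.0293) and the other 2 did not (0.0873 and 0.124), although 1449334_at differed in sign between the numbers. Without resistant 1 the differences of the 4 were -0.35, -0.22, -0.09 and -0.16. Without resistant 2 the difference of 1419088_at was -1.13 (limma adjusted p = 0.0443), with resistant 1 as the lone resistant array and the spread taken from the original arrays and the prior.

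**Figure D3:**
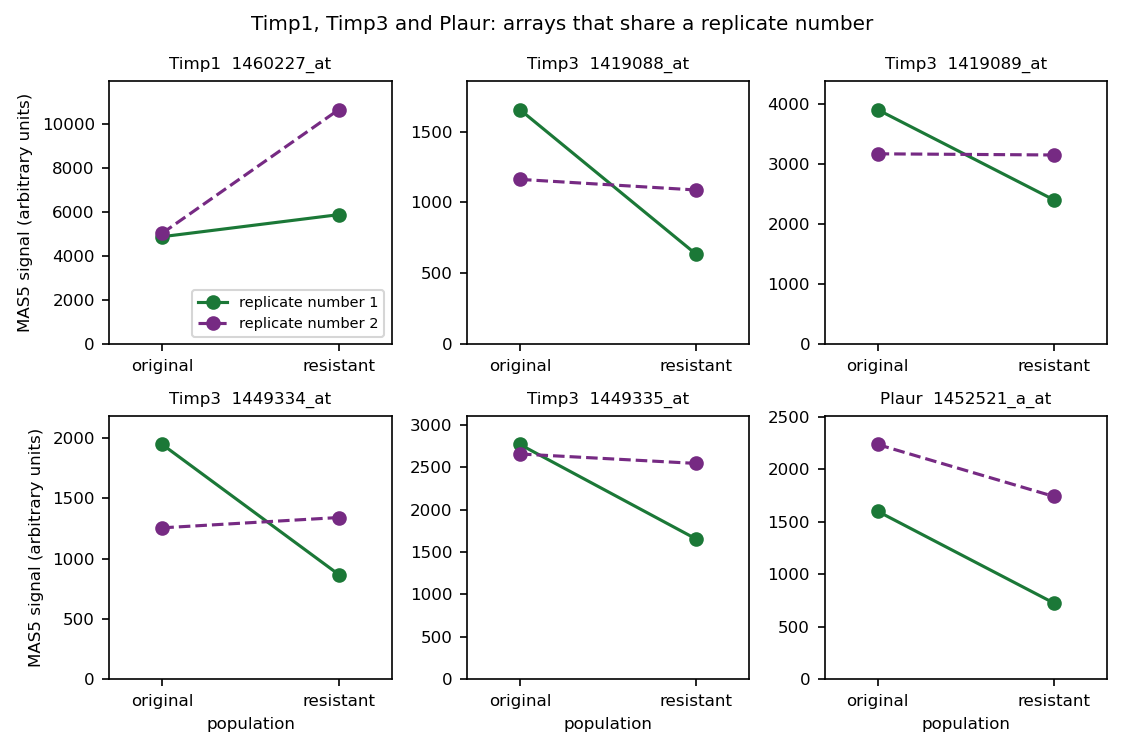
MAS5 signal in the original and resistant populations for Timp1, the 4 Timp3 probe sets and Plaur, with lines joining the arrays of replicate number 1 (solid) and number 2 (dashed). The Timp3 lines fall steeply for number 1 and are nearly level for number 2, while Timp1 rises more steeply for number 2, from 5034.4 to 10632.6.

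Timp2 encodes the inhibitor that links the MMP-2 precursor to MMP-14. Of its 6 probe sets 5 were tested. The brightest, 1460287_at, had 7293 and 5661.5 on the original and 5209 and 6305.5 on the resistant arrays. Probe set 1454677_at had 7161 and 5475.1 on the original and 6066.3 and 5611.6 on the resistant arrays. In both the original arrays spanned more than the distance between the groups. Probe set 1450040_at had 2540.5 and 1552.8 on the original and 2099.9 and 2141.3 on the resistant arrays, which lay between the original ones. The resistant arrays also lay between the original ones for 1433662_s_at, at 4952.8 and 4552 against 5731 and 3377.6, and for 1420924_at, at 1511.8 and 1416.4 against 2481 and 1164.2.

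Over the 5 tested Timp2 probe sets the log2 differences ran from -0.22 to 0.11, 2 above 0 and 3 below, and none passed (limma adjusted p from 0.937 to 0.986). All 5 were lower in the resistant pool in number 1, by -0.21 to -0.71, and higher in number 2, by 0.03 to 0.46. Original 2 was the lowest of the 4 arrays for 1420924_at, 1433662_s_at, 1450040_at and 1454677_at. The 95% interval of 1460287_at ran from a ratio of 0.667 to 1.19, and that of 1454677_at from 0.704 to 1.23, so a doubling or a halving of these signals lay outside them. The sixth probe set, 1437081_at, had 13.2 and 22.2 on the original and 3.4 and 1 on the resistant arrays, all under the filter, and was not tested.

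Plaur encodes the urokinase receptor. Its single probe set, 1452521_a_at, is of the kind that the array design marks as matching several transcripts of 1 gene. It had 1600.6 and 2237.6 on the original and 724.2 and 1741.6 on the resistant arrays. Resistant 1 was far below the other 3 arrays, and resistant 2 lay between the original ones, so the groups overlapped. The means were 1919.1 ± 450 and 1232.9 ± 719 (SD, n = 2 per group), for a log2 difference of -0.75 ± 0.343 (SE) that missed the threshold (limma adjusted p = 0.675). The differences were -1.14 in number 1 and -0.36 in number 2, and with the replicate block the gene passed (limma adjusted p = 0.000268). Without resistant 1 the difference was -0.12, and without resistant 2 it was -1.38 (limma adjusted p = 0.011). The latter sets resistant 1, the lowest array, alone against the original arrays, which with the prior give the spread.

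Plau, the ligand of that receptor, was dim on every array. Probe set 1422138_at had 31.7 and 29.9 on the original and 4.8 and 21 on the resistant arrays, and 1422139_at had 14 and 20.2 on the original and 22.1 and 14.4 on the resistant ones. The first was lower on both resistant arrays and the second overlapped, and neither reached the filter, so Plau was not tested.

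Other genes of these families were taken from lists. Among 23 metalloproteinase genes 18 had a probe set and 6 were tested, Mmp2, Mmp9, Mmp10, Mmp11, Mmp13 and Mmp14, with a median log2 difference of 0.12. None passed over all probe sets. Mmp13 and Mmp10 passed lower with the replicate block, as did 3.09% of all probe sets. Their resistant means of 26.25 and 45.3 were under the filter. Mmp10 was therefore tested only through the original arrays, and Mmp13 only through original 1, since its original 2 signal also lay under the filter. Both had to be higher in the original mean, and these passes are given as a description. Mmp13, which encodes collagenase-3, had 196.1 and 34 on the original and 47 and 5.5 on the resistant arrays. The groups overlapped, but the array of the resistant pool was lower in each number, by -1.99 and -2.12 on the log2 scale (-2.06 ± 0.923 SE; limma adjusted p = 0.661, and 0.0042 with the replicate block). The size was unstable: it was -0.86 with a pseudocount of 64, -0.78 without resistant 2, -3.27 without original 2 and -3.34 without resistant 1. With the filter on the mean log2 signal, or without original 1, Mmp13 was not tested. Mmp10, which encodes stromelysin-2, had 136.1 and 74.4 on the original and 65.2 and 25.4 on the resistant arrays. Its log2 difference was -1.24 ± 0.519 (SE; limma adjusted p = 0.619, and 0.0436 with the replicate block), with -1.03 and -1.45 in the numbers. It was -0.63 with a pseudocount of 64, and ran from -1.87 without resistant 1 to -0.61 without resistant 2. Mmp11, which encodes stromelysin-3, had 107.4 and 89.7 on the original and 162.4 and 140.9 on the resistant arrays, a log2 difference of 0.61 ± 0.314 (SE) that did not pass (limma adjusted p = 0.738, and 0.284 with the replicate block).

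Among 9 inhibitor genes of the TIMP list 5 were tested, with a median of -0.16. Timp1 was the 1 gene of this list called with the replicate block when a gene takes its brightest probe set, and 0 were called without the block. Over all probe sets 2.36% passed higher with the block. Reck, a membrane-anchored metalloproteinase inhibitor, had 89.5 and 57.3 on the original and 62.5 and 65.4 on the resistant arrays, a log2 difference of -0.16 ± 0.411 (SE; limma adjusted p = 0.989). Both Timp4 probe sets were under the filter.

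In the list of plasminogen activators, receptors and plasminogen, 9 of 18 genes were tested, with a median of -0.27, 3 fitted above 0 and 6 below. None passed, and Plaur, Igf2r and Plgrkt passed lower with the replicate block, as did 3.09% of all probe sets. Igf2r encodes the mannose 6-phosphate receptor, which carries lysosomal enzymes and also binds the urokinase receptor. Its probe set 1424112_at had 598.5 and 276.2 on the original and 126.5 and 56.5 on the resistant arrays, and the groups did not overlap. The log2 difference was -2.22 ± 0.437 (SE; limma adjusted p = 0.109, and 5.19e-16 with the replicate block), with -2.22 and -2.23 in the numbers, and the second probe set of Igf2r gave -2.12 ± 0.427 (SE). Both resistant signals of that second probe set, 44.9 and 25.6, lay under the filter, so it was tested only through the original arrays. Plgrkt, which encodes a plasminogen receptor, had 1050.6 and 824 on the original and 716.8 and 440.4 on the resistant arrays, a log2 difference of -0.73 ± 0.25 (SE; limma adjusted p = 0.502, and 0.00357 with the replicate block). Plat, which encodes the tissue plasminogen activator, had 465 and 251.5 on the original and 349.2 and 340.7 on the resistant arrays, a log2 difference of 0.01 ± 0.291 (SE; limma adjusted p = 0.999). The plasminogen gene Plg was under the filter, with 1.3 to 11.7 on the 4 arrays.

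Of 19 serpins and other serine protease inhibitors 6 were tested, with a median of -0.04, and 0 passed, beside 0.228% of all probe sets. With the replicate block 2.36% of all probe sets passed higher and 3.09% lower. Tfpi, which encodes the inhibitor of the tissue factor pathway, had 779.2 and 730.5 on the original and 430.3 and 452.3 on the resistant arrays. Its log2 difference was -0.77 ± 0.191 (SE, limma adjusted p = 0.232, and 0.00259 with the replicate block). Its other 2 probe sets gave -0.64 at 1451791_at and -0.67 at 1452432_at. With the block the first of these passed and the second did not (limma adjusted p = 0.023 and 0.163). Slpi, which encodes a secreted leukocyte protease inhibitor, had 1879.8 and 460.8 on the original and 1683 and 1505.6 on the resistant arrays. Slpi passed higher with the replicate block (limma adjusted p = 0.000336) although its log2 differences were -0.16 in number 1 and 1.70 in number 2. Serpinh1, a collagen chaperone of the serpin family, had a log2 difference of -0.01 ± 0.175 (SE; limma adjusted p = 0.999). Serpinb5, Spint1 and Spint2 had probe sets only under the filter, as did the 8 membrane serine proteases listed, St14 among them.

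Among 24 listed activators and inducers of these proteases 16 were tested, with a median of -0.04, 7 fitted above 0 and 9 below. None passed, and Fosl1 and Ets1 passed lower with the replicate block, as did 3.09% of all probe sets. The other tested AP-1 genes of the list were fitted higher, Jun by 0.09, Junb by 0.31 and Fosl2 by 0.28 on the log2 scale. So were the other tested ETS genes, Ets2 by 0.34 and Elk3 by 0.17, and none of these passed with or without the block. Fosl1 encodes FRA-1, an AP-1 subunit. Its probe set 1417487_at had 2631 and 3553.9 on the original and 1432.3 and 2285.9 on the resistant arrays, which did not overlap. The log2 difference was -0.76 ± 0.239 (SE; limma adjusted p = 0.414, and 2.75e-05 with the replicate block), with -0.88 and -0.64 in the numbers, and its other probe set gave -1.06 ± 0.335 (SE). Ets1, a transcription factor of the family that binds PEA3 motifs, had a log2 difference of -0.50 ± 0.210 (SE) at 1452163_at (limma adjusted p = 0.616, and 0.0396 with the replicate block). All 4 of its probe sets were lower on both resistant arrays, as were 18.3% of all probe sets tested. They share a gene, and 1422027_a_at, 1422028_a_at and 1426725_s_at did not pass with the block (limma adjusted p = 0.132, 0.686 and 0.748). Bsg, which encodes the metalloproteinase inducer basigin, and Furin, the convertase that activates the MMP-14 precursor, had log2 differences of -0.14 ± 0.207 and 0.27 ± 0.228 (SE), and neither passed (limma adjusted p = 0.965 and 0.881).

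**Figure D4:**
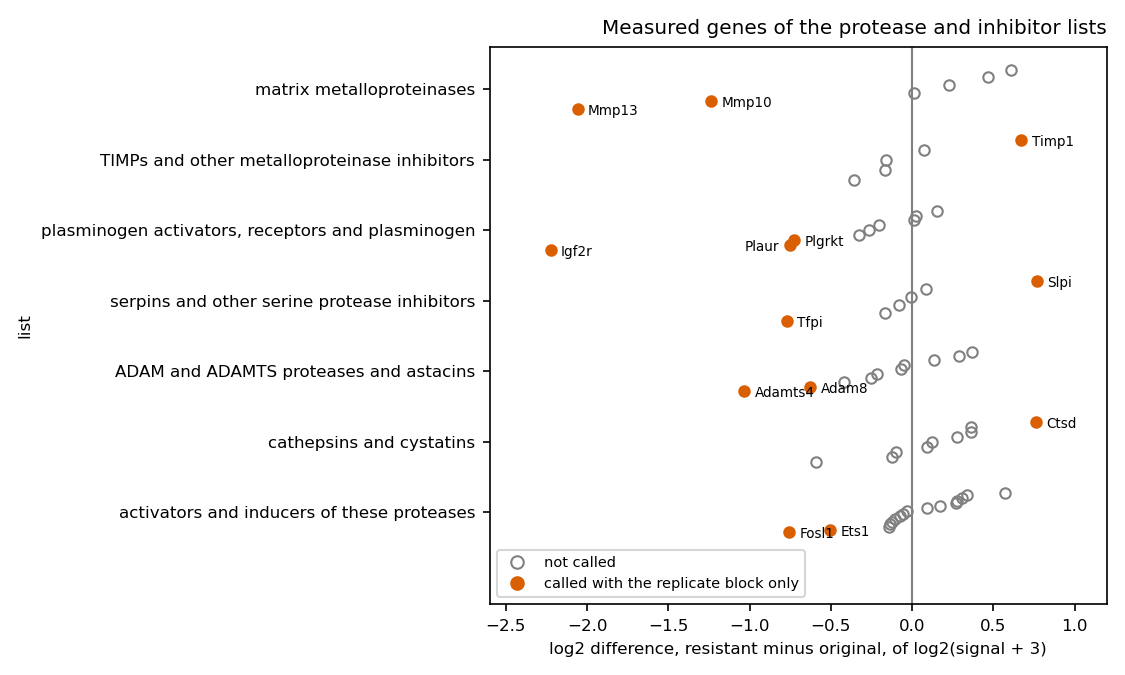
Log2 difference, resistant minus original, of each tested gene (its brightest probe set) in 7 lists of proteases, inhibitors and inducers. Filled points are genes that passed only with the replicate block; Igf2r at -2.22 and Mmp13 at -2.06 lie farthest left, and Timp1, Slpi and Ctsd are the filled points right of 0.

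Markers of other cells were measured on the same arrays. The 8 endothelial markers were all under the filter, and their summed signal was 83.8 and 109.5 on the original and 99.7 and 92.6 on the resistant arrays. Of 11 leukocyte markers with a probe set 5 passed the filter, and the sum of all 11 was 844.6 and 567.8 on the original and 663 and 618.3 on the resistant arrays. Of these 5, Cd14 had 194.5 to 247.4, Lyz2 79.6 to 186.6, Cd68 71.8 to 124.6, Csf1r 46.5 to 103.8 and Laptm5 39.7 to 76.9. Ptprc, the pan-leukocyte marker, was under the filter, with 7.4 to 14.8. Of 13 fibroblast markers 9 passed the filter, and the sum of all 13 overlapped between the groups, at 10743 and 8449.3 on the original and 12853 and 10712 on the resistant arrays. In each number the sum was higher on the resistant array, though it adds probe sets of unlike brightness. The 9 tested had a median log2 difference of 0.72, with 7 fitted above 0 and 2 below. Col3a1 was higher by 1.99 ± 0.322 (SE; limma adjusted p = 0.0477) at 1427883_a_at. Its other probe set, 1427884_at, gave 1.76 ± 0.520 (SE) and did not pass (limma adjusted p = 0.369). Postn had 1.88 ± 0.557 (SE). Col1a1 had 0.99 ± 0.272 (SE) at its brighter probe set and -0.06 at the other. Dcn and Col1a2 went the other way, with -2.15 ± 0.704 and -0.62 ± 0.183 (SE). With the replicate block 6 were higher and 2 lower, Dcn and Col1a2, where 5.45% of all probe sets passed. Of 12 mammary epithelial and ErbB2 tumour markers with a probe set only Erbb2 passed the filter, with 319.7 and 299.4 on the original and 280.7 and 326.2 on the resistant arrays. The epithelial markers Krt8, Krt18, Epcam and Cdh1 were under the filter in both populations. The part of fibroblast genes in the differences of Timp1, Timp3 and Plaur was not tested. The RNA came from a cell line, and whether cells of other types were present was not tested. In bulk RNA, a different number of cells of a type and a different amount of RNA per cell cannot be told apart.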

How the data were processed

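RNA from 2 arrays of each population was analysed. The deposited values are MAS5 signal intensities, made by the authors with MAS5 per the submitters' processing notes. Gene names came from the platform annotation, which gave 1 symbol for 20393 probe sets and several for 691; all 9 member genes matched the RefSeq gene table of GRCm38.p6 by identifier. The 64 control probe sets took no part in tests. Arrays were rescaled to 1 trimmed mean (2% off each end), log2(signal + 3) was taken (3 is the rounded 10th percentile of signals), and dim probe sets were left out. The difference, resistant minus original, was fitted with limma 3.58.1 under R 4.3.3 (lmFit, eBayes with a variance trend, two-sided, threshold 0.05). This fit was tested on simulated data with independent noise on each array. The fit with the replicate block was not simulated. A listed gene took its brightest tested probe set. The members were given by name, and members and lists were chosen with earlier results of these data known. Besides the members, named genes were a fixed set of 19 protease and inhibitor genes, any list gene that passed, and up to 4 per list that passed with the replicate block. Some list genes were named outside this rule. Among them were Plg, the AP-1 and ETS genes set beside Fosl1 and Ets1, Col1a2 and other cell type markers. Alternatives covered scaling, pseudocount, filter, variance trend, block and leaving out each array. A motif search covered the 250 bases before each start.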

Additional observations from a re-analysis of the deposited data

How the results depend on the processing

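The count of 0 member probe sets that passed was the same with no rescaling, quantile normalisation, pseudocounts of 17 and 64, no filter, a filter at the 60th percentile, a filter on the mean log2 signal (chosen after seeing the data) and no variance trend. It was 4 with the replicate block and 0 to 2 when 1 array was left out. Over all probe sets 31 passed, against 11 with quantile normalisation, 5 with no filter, 11 with the filter at the 60th percentile, 5 with no variance trend, 740 with the replicate block and 65 to 164 without 1 array. Deviations from the group means correlated at 0.35 between arrays of the same number, and with 2 arrays a group this value is -0.35 by construction for arrays of different numbers; the numbers are a hint from the data and not a stated pairing. For Mmp9 1416298_at the log2 difference was -0.0009 and -0.0203 with pseudocounts of 17 and 64, and the median of its probe sets was -0.33 where the brighter had 0.01. When 1 array was left out, differences spanned 0 for Mmp9 1416298_at (-0.67 to 0.70), Mmp14 (-0.12 to 0.81 and -0.11 to 0.56) and Timp2 (1420924_at -0.76 to 0.33, 1433662_s_at -0.27 to 0.49, 1450040_at -0.26 to 0.45, 1454677_at -0.30 to 0.0895, 1460287_at -0.35 to 0.0154). They also did for Reck (-0.47 to 0.15), Plat (-0.43 to 0.45), Slpi (-0.24 to 1.78), Serpinh1 (-0.17 to 0.16), Adam17 1421858_at (-0.53 to 0.0173), Ctsl (-0.0789 to 0.26) and Bsg (-0.40 to 0.12). Mmp2, Timp1, Timp3, Plaur and the tested Mmp9 1448291_at kept their sign in every alternative that measured them. For Mmp2 1416136_at and Mmp9 1448291_at 1 group's mean lay under the filter, so the other had to be higher. Their kept signs are therefore no evidence of a direction, and Mmp2 1416136_at was not tested without resistant 1. Timp3 1449334_at kept its sign in the fits, although its difference within number 2 was 0.09. Col3a1 no longer passed with quantile normalisation, no filter, the filter at the 60th percentile, the filter on the mean log2 signal or no variance trend (adjusted p from 0.05004 to 0.317). The causes were not tested. The number of arrays limits the precision, and signals near the filter carry large relative errors.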

Other observations

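Other proteases that cut matrix or surface proteins were also compared. Of 17 genes of the ADAM, ADAMTS and astacin families 10 were tested, with a median log2 difference of -0.14, 3 fitted above 0 and 7 below. None passed (limma), and Adamts4 and Adam8 passed lower with the replicate block, as did 3.09% of all probe sets. Adamts4, an aggrecanase that also cuts versican, had 1192.5 and 430.5 on the original and 570.6 and 213.4 on the resistant arrays. The groups overlapped, and the resistant array was lower in each number, by -1.06 and -1.0 (-1.03 ± 0.491 SE; limma adjusted p = 0.701, and 1.62e-05 with the block). Adam8 had 883.7 and 800.3 on the original and 415 and 713.3 on the resistant arrays, a log2 difference of -0.63 ± 0.254 (SE; limma adjusted p = 0.597, and 0.0208 with the block). Adam17, the sheddase of TNF and of EGF-family ligands, had a log2 difference of -0.25 ± 0.253 (SE) at its brightest probe set, 1421858_at. Bmp1, the procollagen C-proteinase, had 0.37 ± 0.234 (SE), and neither passed (limma adjusted p = 0.916 and 0.821). The other Adam17 probe sets were lower by more, with -0.63 at 1421857_at and -0.47 at 1421859_at, and did not pass with or without the block.

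Among 16 cathepsin and cystatin genes 9 were tested, with a median of 0.12, 6 fitted above 0 and 3 below. Of the 9, 0 passed (limma), beside 0.228% of all probe sets, and Ctsd passed higher with the replicate block, as did 2.36% of all probe sets. Ctsd, the lysosomal aspartic protease cathepsin D, had 2745.8 and 1667.2 on the original and 3520.9 and 3756.3 on the resistant arrays, which did not overlap. Its log2 difference was 0.76 ± 0.225 (SE; limma adjusted p = 0.369, and 8.8e-06 with the replicate block), with 0.36 and 1.17 in the numbers. Ctsb, which encodes cathepsin B, had 4 tested probe sets with log2 differences from 0.21 to 0.37, and Ctsl, which encodes cathepsin L, one with 0.09 ± 0.183 (SE); none of the 5 passed.

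The arrays of 1 population also differed between the numbers. Between resistant 2 and resistant 1, Timp1 was higher by 0.86 and Plaur by 1.26 on the log2 scale, while between original 2 and original 1 they differed by 0.05 and 0.48. All 4 Timp3 probe sets were higher on resistant 2 than on resistant 1, by 0.39 to 0.78, and lower on original 2 than on original 1, by -0.06 to -0.63.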
